A study of Mus musculus with 8 samples.

Results

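The genes described here are 51 listed as lysosomal hydrolases and membrane proteins, taken by gene symbol from the 23413 rows of the deposited count table. They comprise 8 membrane proteins, 12 cathepsins and other proteases, 12 glycosidases, 4 sulfatases, 11 lipid enzymes and lipid-binding proteins, and 4 further proteins (the phosphatases Acp2 and Acp5, the nuclease Dnase2a and progranulin, Grn). All 51 were found in the table, and all 51 passed the filter on low counts in each comparison. The lowest count of any of them in any mouse was 7, for Smpdl3b, and 50 of the 51 had at least 10 counts in every mouse.

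The cells were tumor-associated macrophages (TAMs) from tumors of B16F10, a mouse melanoma line, grown in male C57BL/6 mice of 8 to 10 weeks. Mice received thiostrepton, a thiopeptide antibiotic, or its vehicle DMSO on days 6 and 12 of tumor growth. Bulk RNA-seq was done on day 18, on cells sorted for CD45, F4/80 and CD11b and against Gr-1. Thiostrepton was given intraperitoneally (I.P., 4 mice) or subcutaneously beside the tumor at 20 mg/kg (S.C., 2 mice), and 2 mice received DMSO. The I.P. dose of these 4 mice and the route of the 2 DMSO mice are not given in the sources used here, so route, dose and vehicle route cannot be told apart.

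The lysosome is the acidic compartment in which macrophages break down what they engulf. Soluble hydrolases cut proteins, sugar chains, sulfated glycans and lipids, and membrane proteins line the compartment, carry products out and hold the V-ATPase that acidifies it. Many of these genes are known to share a short promoter element around the E-box core CACGTG, which is bound by the MiT/TFE factors TFEB and TFE3 when mTORC1 signaling at the lysosomal surface is low. In TAMs, lysosomal proteases are known for degrading matrix and for processing antigens.

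Libraries held 14127506 to 17577466 gene counts, and a floor of 3 counts corresponded to 0.169 to 0.218 CPM (counts relative to the library total, scaled by TMM factors). Of 9328 genes whose mean was 5 CPM or more, 0.525% and 0.364% were at 0 counts in the S.C. mice, against 0.0107% to 0.129% in the other 6. The macrophage markers Emr1 (F4/80) and Itgam (CD11b) were present in every mouse. The summed level of 13 of 14 listed macrophage markers was 17366 to 22474 CPM in the DMSO mice, 25694 to 55465 CPM in the I.P. mice and 28609 to 31759 CPM in the S.C. mice. This sum was higher in every treated mouse, but it includes Apoe and does not show that the other markers moved. Apoe, a lipid carrier, made up much of that sum, at 9498 and 6641 CPM in the DMSO mice, 38151, 14134, 13570 and 19638 CPM in the I.P. mice and 14364 and 17381 CPM in the S.C. mice. Pigment-cell markers (10 of 11 listed) summed to 645 to 723, 475 to 1814 and 757 to 3211 CPM in the DMSO, I.P. and S.C. mice, and neutrophil markers (11 of 12 listed) to 186 to 193, 133 to 186 and 294 to 527 CPM. T and NK cell markers (12 of 12) summed to 9.36 to 27.4, 2.87 to 21.2 and 37.4 to 46.7 CPM, with Ncr1 at 0 in both DMSO mice. B cell markers (6 of 6) lay at 8.81 to 31.2 CPM, with Pax5 at 0 in every mouse, and fibroblast and endothelial markers (11 of 11) at 1.41 to 9.61 CPM, with Pdgfra and Krt14 at 0 in every mouse. Dendritic cell markers (9 of 9) lay at 98.1 to 213 CPM in the 8 mice, with Clec9a at 0 in both S.C. mice, and erythroid markers (6 of 8 listed) at 2.68 to 580 CPM. The part of these markers in the results below was not tested. In bulk RNA, fewer cells that express a gene and less RNA per cell cannot be told apart.

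The promoters are shown for 5 of the genes because they carry the E-box core: the heparan sulfate enzymes Naglu and Sgsh, which passed the unadjusted test after I.P. thiostrepton, the membrane proteins Lamp1 and Mcoln1, which hold several copies in the stretch shown, and Ctsd, the most abundant member per kb. Each sequence is the 130 bases before the RefSeq transcription start on the gene's own strand in GRCm38.p6, written 5′ to 3′, and the capitals mark CACGTG.
Naglu, chr11:101069964-101070093, plus strand: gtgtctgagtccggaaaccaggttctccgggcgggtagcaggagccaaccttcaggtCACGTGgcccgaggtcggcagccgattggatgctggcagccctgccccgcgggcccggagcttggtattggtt
Sgsh, chr11:119355511-119355640, minus strand: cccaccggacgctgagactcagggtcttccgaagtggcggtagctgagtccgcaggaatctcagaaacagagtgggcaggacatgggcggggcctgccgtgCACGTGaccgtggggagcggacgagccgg
Lamp1, chr8:13159031-13159160, plus strand: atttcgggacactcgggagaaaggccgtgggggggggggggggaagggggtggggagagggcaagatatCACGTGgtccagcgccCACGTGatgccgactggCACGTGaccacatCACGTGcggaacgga
Mcoln1, chr8:3500389-3500518, plus strand: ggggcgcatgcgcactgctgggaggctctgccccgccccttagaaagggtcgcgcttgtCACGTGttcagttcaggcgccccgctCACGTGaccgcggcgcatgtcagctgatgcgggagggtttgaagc
Ctsd, chr7:142387828-142387957, minus strand: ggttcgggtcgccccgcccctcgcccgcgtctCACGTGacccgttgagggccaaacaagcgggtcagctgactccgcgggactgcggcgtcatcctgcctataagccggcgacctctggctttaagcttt

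The core began 73, 29 and 98 bases before the RefSeq starts of Naglu, Sgsh and Ctsd. Ctsd held a further copy 245 bases before its start. Lamp1 held 4 copies, at 61, 45, 28 and 15 bases before its start, and Mcoln1 held 2, at 71 and 45 bases. The gene coordinates given below come from another annotation, GENCODE, in which Naglu, Sgsh, Mcoln1 and Ctsd start upstream of the RefSeq start. The stretches shown for them lie partly inside the GENCODE gene, that of Ctsd wholly. Promoters from 250 bases before to 50 bases after the start were listed by RefSeq for 45 of the 51 genes and were searched on both strands. The other 6 (Npc1, Ctsb, Ctsh, Asah1, Smpdl3a and Plbd2) had no promoter in the list used and were not searched. CACGTG, a palindrome, occurred in 15 of the 45 genes (33.33%), against 8.093% of the 27025 genes with a listed promoter. The longer TCACGTG, whose matches are also matches of that core, occurred in 12 of the 45 (26.67%) against 4.292% of all. The AP-1 sequence TGACTCA, which does not overlap the core, occurred in 4 of the 45 (8.889%) against 5.946% of all. These matches are descriptions of letters in the window, not of binding.

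Among the searched genes, the 12 with TCACGTG did not include most of those that passed a test below. Smpdl3a and Npc1, which also passed a test, were not searched. Of the 12, 11 had a log2 fold change above 0 after I.P. treatment, with a median of 0.32, against 23 of the 33 without it, with a median of 0.15. After S.C. treatment the corresponding counts were 11 of 12, with a median of 0.31, and 24 of 33, with a median of 0.20. Naglu and Sgsh were the 2 genes of the 12 at an unadjusted P under 0.05 after I.P. treatment. Of the 33 without TCACGTG, 4 passed. After S.C. treatment none of the 12 passed, against 2 of the 33. Of all genes tested, 3.43% (I.P.) and 5.41% (S.C.) passed in either direction.

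Lysosomal transcripts were among the most abundant of the TAMs. Together the 51 genes took 8.67% and 6.89% of all gene counts in the DMSO mice, 8.58%, 9.56%, 8.53% and 10.002% in the I.P. mice, while the S.C. mice gave 8.91% and 9.62%. Both S.C. mice lay above both DMSO mice, whereas 2 of the 4 I.P. mice lay between the DMSO mice. By mean CPM, Ctsb ranked 2nd of all 23413 genes, Ctsd 6th, Psap 9th, Ctss 12th and Grn 15th. Per kb of transcript, the mean levels over all 8 mice were highest for Ctsd at 7385 CPM per kb, Ctsb at 5394, Ctss at 4121, Cd68 at 2429 and Psap at 2225. They were lowest for Arsb at 4.35 CPM per kb, Sgsh at 4.85 and Ids at 4.90, so that the sulfatases formed the least abundant class. The plot of levels by class shows this spread, in which the highest sulfatase, Arsa, stood at 9.21 CPM per kb.

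**Figure D1:**
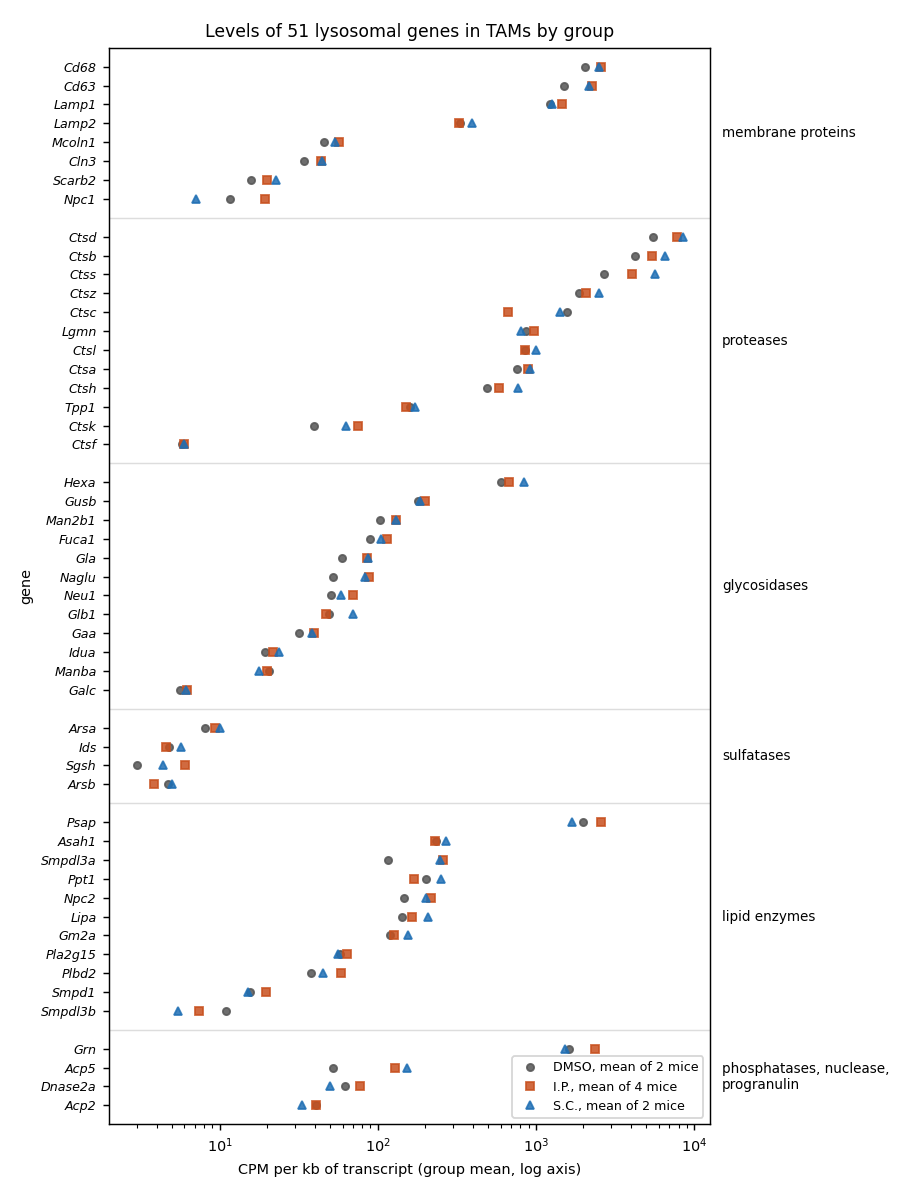
Group mean level of each of the 51 genes in CPM per kb of transcript (log axis), grouped by class, for 2 DMSO, 4 I.P. and 2 S.C. mice. Ctsd averaged 7385 CPM per kb over the 8 mice and Arsb 4.35, and the 3 groups lie close together for most genes.

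By class, the share of counts on phosphatases, nuclease and progranulin was 0.406% and 0.473% in the DMSO mice, 0.631%, 0.586%, 0.615% and 0.603% in the I.P. mice, while the S.C. mice gave 0.344% and 0.413%. The I.P. mice lay above both other groups, and Grn carried most of this share. Membrane proteins took 0.842% and 0.834% in the DMSO mice, 0.926% to 1.05% in the I.P. mice and, for S.C., 0.887% and 0.878%. Neither treated group overlapped the DMSO group, and the I.P. mice again lay above both other groups. Proteases took 6.09% and 4.45% in the DMSO mice, 5.45% to 6.78% in the I.P. mice and, for S.C., 6.61% and 7.001%. Glycosidases, at 0.308% to 0.437%, and sulfatases, at 0.00637% to 0.0128%, overlapped between all groups. Lipid enzymes took 0.964% and 0.817% in the DMSO mice, 0.968% to 1.18% in the I.P. mice and, for S.C., 0.735% and 0.881%. Here too the I.P. mice lay above both other groups, I.P. mouse 1 by a narrow margin.

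**Figure D2:**
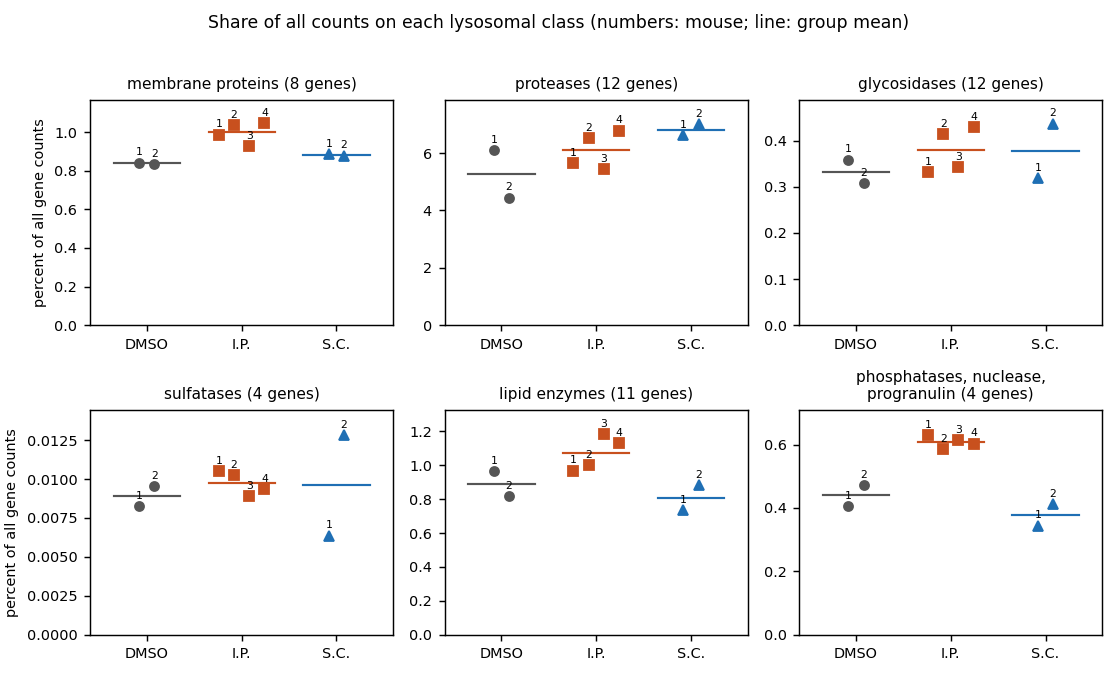
Share of all gene counts, in percent, on each of 6 lysosomal classes, with 1 numbered point per mouse and a line at the group mean. The 4 I.P. mice, at 0.586% to 0.631%, lie above both other groups for phosphatases, nuclease and progranulin. They do so as well for membrane proteins and, narrowly, for lipid enzymes. The 2 S.C. mice differ most for sulfatases, at 0.00637% and 0.0128%.

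The first comparison asked which lysosomal transcripts differed in TAMs after I.P. thiostrepton. Higher in the I.P. mice were 6 genes at an unadjusted P under 0.05 (Smpdl3a, Acp5, Sgsh, Naglu, Cd63 and Grn), and 1 was lower (Ctsc), of the 51 tested. Over all 12174 genes tested, 2.55% were higher and 0.879% lower at that threshold, 3.43% in either direction. At the study's criterion, which adds a change of at least 2-fold, 3 of the 51 were higher (Acp5, Smpdl3a and Sgsh) and 1 lower (Ctsc), against 1.53% and 0.468% of all genes. All 4 I.P. mice exceeded both DMSO mice for 20 of the 51 genes, against 7.32% of all genes, and all 4 lay below both for 1 (Smpdl3b), against 6.83%. The median log2 fold change of the 51 was 0.25 and 39 were above 0, beside a median of 0.02 and 51.8% above 0 over all genes. By edgeR's quasi-likelihood test with Benjamini-Hochberg adjustment, 0 of all genes tested had an adjusted p under 0.05, and the smallest adjusted p among the 51 was 0.980. DESeq2 placed 26 genes under an adjusted p of 0.05, 1 of them a lysosomal gene (Smpdl3a, adjusted p = 0.00868), and edgeR's likelihood ratio test placed 10, of which 0 were lysosomal. In what follows, differences are log2 fold changes over DMSO ± their standard error, with the unadjusted P of edgeR's quasi-likelihood test where it was under 0.05.

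The second comparison asked the same of S.C. thiostrepton. Of the 51 genes, 3 were higher at an unadjusted P under 0.05 (Acp5, Smpdl3a and Ctss), all by at least 2-fold, and 0 were lower, against 2.5% higher and 2.91% lower (5.41% in either direction) of 11680 genes tested. At 2-fold and that P, 2.29% of all genes were higher and 2.77% lower. Both S.C. mice exceeded both DMSO mice for 20 of the 51, against 17.1% of all genes, and lay below both for 3 (Npc1, Psap and Dnase2a), against 17.2%. The median log2 fold change of the 51 was 0.25 and 40 were above 0, beside 0.02 and 51.6% over all genes. Scaling by library size alone moved the median of all genes to -0.13 and that of the 51 to 0.09, with 34 of the 51 and 39.6% of all genes above 0. By edgeR's quasi-likelihood test, 0 of all genes passed an adjusted p of 0.05, and the smallest adjusted p among the 51 was 0.747. DESeq2 placed 107 genes under it, with Acp5 (adjusted p = 0.0374) the 1 lysosomal gene, and edgeR's likelihood ratio test placed 179, of which 0 were lysosomal. The I.P. and S.C. comparisons share the same 2 DMSO mice.

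**Figure D3:**
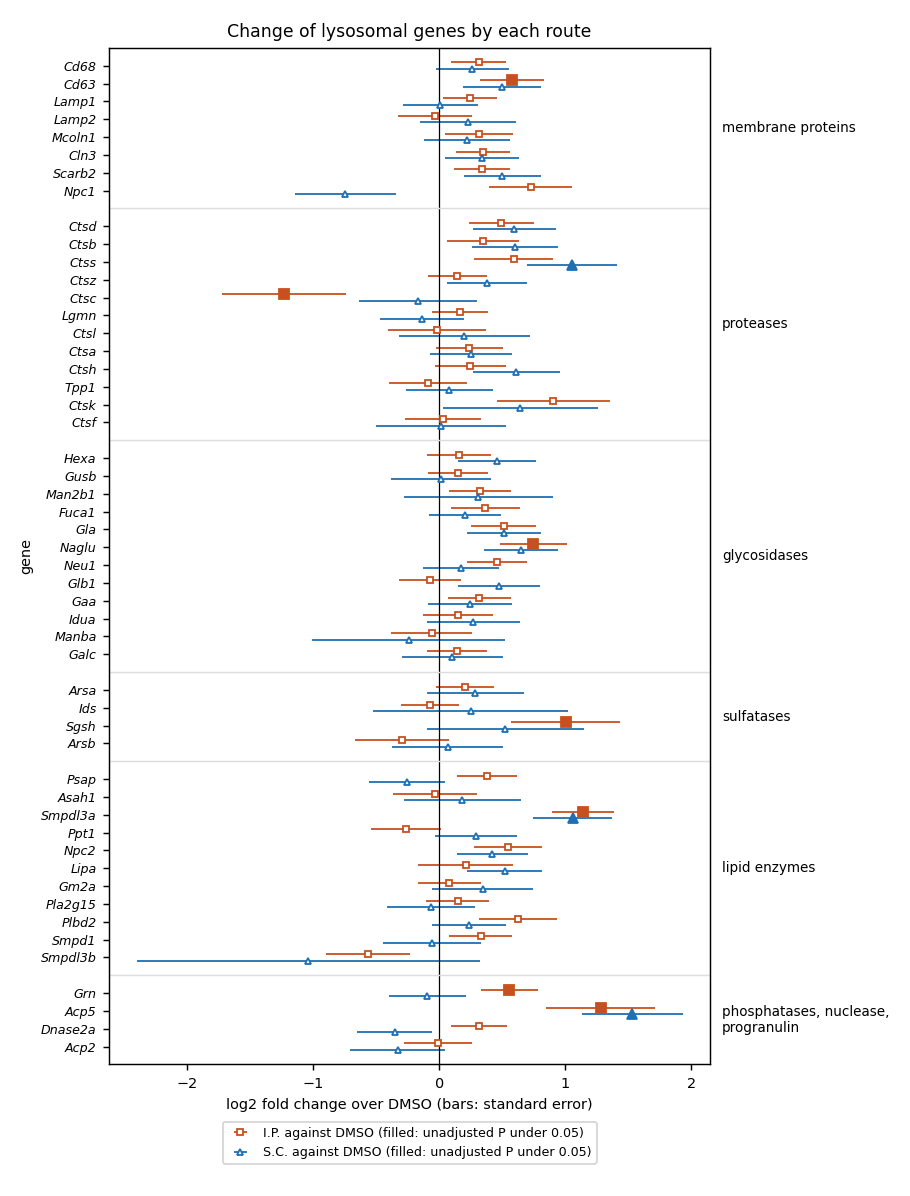
Log2 fold change over DMSO of each of the 51 genes after I.P. (squares) and S.C. (triangles) thiostrepton, with bars for the standard error and filled symbols for an unadjusted P under 0.05 in edgeR's quasi-likelihood test. Most symbols lie right of 0 (39 of 51 after I.P., 40 of 51 after S.C.), Smpdl3a and Acp5 are filled for both routes, and Ctsc is the filled symbol on the left.

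Among the membrane proteins, 7 of 8 had a log2 fold change above 0 by each route, and 1 passed the unadjusted threshold after I.P. treatment and 0 after S.C. treatment. The class medians were 0.33 (I.P.) and 0.25 (S.C.) on the log2 scale. Cd63, a tetraspanin of late endosomes and lysosomes, measured 1579 and 1608 CPM in the DMSO mice, 3159, 2183, 2134 and 2100 CPM in the I.P. mice, and 2643 and 1948 CPM in the S.C. mice. Every treated mouse lay above both DMSO mice. The log2 fold change of Cd63 was 0.58 ± 0.25 (SE, unadjusted P = 0.0498) after I.P. and 0.50 ± 0.31 after S.C. treatment, and the first passed the threshold under 1 of 14 alternative settings. Cd68, a macrophage member of the LAMP family, measured 2694 and 2376 CPM with DMSO, 3396, 3245, 2859 and 3141 CPM after I.P., and 3317 and 2877 CPM after S.C. treatment. Every treated mouse lay above both DMSO mice, but the differences of 0.31 ± 0.22 and 0.26 ± 0.29 did not pass the test.

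Npc1, which moves cholesterol out of the lysosome, was the membrane protein on which the routes parted. It measured 45.4 and 76.8 CPM in the DMSO mice, 147, 88.3, 83.9 and 87.7 CPM in the I.P. mice, and 40.8 and 33.6 CPM in the S.C. mice. All I.P. mice were above and both S.C. mice below both DMSO mice. Against DMSO neither difference passed, at 0.73 ± 0.33 after I.P. and -0.75 ± 0.40 after S.C. treatment. Npc2, the soluble protein that hands cholesterol to Npc1, measured 497 and 477 CPM with DMSO, 962, 541, 725 and 630 CPM after I.P., and 669 and 658 CPM after S.C. treatment. It was above both DMSO mice in every treated mouse, by 0.55 ± 0.27 and 0.42 ± 0.28. Lamp1 and Lamp2, the main glycoproteins of the lysosomal membrane, spanned 2509 to 3455 CPM and 454 to 1114 CPM over the 8 mice, with log2 fold changes of 0.24 and -0.03 (I.P.) and 0.01 and 0.23 (S.C.). Mcoln1, the calcium channel of the lysosome, Cln3, a membrane protein lost in a neuronal storage disease, and Scarb2, which carries glucocerebrosidase to the lysosome, had differences between 0.22 and 0.50, none of which passed. Of the Lamp1 and Cln3 exon bases, 11.17% and 12.43% lie under exons of genes on the opposite strand (Grtp1 and Apobr), and counting by strand is not stated.

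Among the 12 proteases, 0 were higher and 1 lower at an unadjusted P under 0.05 after I.P. treatment, and 1 was higher and 0 lower after S.C. treatment. The class medians were 0.20 and 0.31. Ctsc (dipeptidyl peptidase I, which activates the serine proteases of immune granules; chr7:88278085-88310888, mm10, plus strand) measured 6356 and 2660 CPM in the DMSO mice, 855, 2431, 2896 and 1489 CPM in the I.P. mice, and 3774 and 4381 CPM in the S.C. mice. The I.P. and DMSO values overlapped, with I.P. mouse 3 above DMSO mouse 2. The difference after I.P. treatment was -1.23 ± 0.50 (unadjusted P = 0.0358), 2.35-fold lower, and after S.C. treatment -0.17 ± 0.47. Without DMSO mouse 1 the first was -0.47 and without I.P. mouse 4 it was -1.13, and neither passed.

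Ctss (cathepsin S, which trims the invariant chain for antigen presentation; chr3:95526786-95556403, mm10, plus strand) measured 4473 and 2812 CPM with DMSO, 6889, 3863, 6067 and 5202 CPM after I.P., and 7001 and 8364 CPM after S.C. treatment. Both S.C. mice were above both DMSO mice, and I.P. mouse 2 lay between the DMSO mice. The difference was 1.05 ± 0.36 (unadjusted P = 0.0284), 2.07-fold, after S.C. and 0.59 ± 0.31 after I.P. treatment. The S.C. value was 0.75 without DMSO mouse 2 and 0.88 without S.C. mouse 2, and neither passed. Ctsd, the aspartic protease of the lysosome, measured 13026 and 10436 CPM with DMSO, 15223, 19523, 13971 and 17421 CPM after I.P., and 15754 and 20314 CPM after S.C. treatment. Every treated mouse was above both DMSO mice, but differences of 0.49 ± 0.26 and 0.60 ± 0.33 did not pass. Ctsb, the most abundant cysteine cathepsin here, spanned 16029 to 24181, 19916 to 30077 and 29706 to 32334 CPM in the DMSO, I.P. and S.C. groups, with both S.C. mice above both DMSO mice. Of its exon bases, 16.32% lie under exons of Fdft1 on the opposite strand.

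Ctsk, a collagen-degrading cathepsin best known from osteoclasts, measured 26.0 and 94.3 CPM in the 2 DMSO mice, 109, 97.8, 128 and 118 CPM after I.P., and 95.4 and 95.96 CPM after S.C. treatment. All treated mice were above both DMSO mice, yet the DMSO mice themselves differed more than any treated pair, and the differences of 0.90 ± 0.45 and 0.64 ± 0.61 did not pass. Ctsl likewise ran from 980 to 2415 CPM between the DMSO mice, with differences of -0.02 ± 0.39 and 0.20 ± 0.52. The other members (Ctsa, Ctsf, Ctsh, Ctsz, the asparaginyl endopeptidase Lgmn and the tripeptidyl peptidase Tpp1) had differences between -0.09 and 0.25 after I.P. and between -0.14 and 0.61 after S.C. treatment. Of the Ctsa exon bases, 22.29% lie under exons of Neurl2 and Pltp on the opposite strand.

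Among the 12 glycosidases, 10 were above 0 after I.P. and 11 after S.C. treatment, with medians of 0.24 and 0.26, and 1 passed the unadjusted threshold after I.P. and 0 after S.C. treatment. Naglu (alpha-N-acetylglucosaminidase, which removes a sugar from heparan sulfate; chr11:101070012-101077672, mm10, plus strand) measured 137 and 130 CPM in the DMSO mice, 266, 213, 157 and 264 CPM in the I.P. mice, and 198 and 227 CPM in the S.C. mice. All 6 treated mice were above both DMSO mice. The difference was 0.75 ± 0.27 (unadjusted P = 0.0224) after I.P. and 0.65 ± 0.29 after S.C. treatment, and the I.P. value was 0.79 and 0.71, not passing, without DMSO mouse 1 or 2. Gla (alpha-galactosidase A) measured 206 and 171 CPM with DMSO, 350, 239, 212 and 280 CPM after I.P., and 271 and 277 CPM after S.C. treatment. It was also above both DMSO mice in every treated mouse, by 0.51 ± 0.26 and 0.51 ± 0.29.

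Hexa, the alpha subunit of beta-hexosaminidase and the most abundant glycosidase per kb, measured 1375 and 1037 CPM with DMSO, 1072, 1595, 1278 and 1445 CPM after I.P., and 1577 and 1790 CPM after S.C. treatment. The I.P. values overlapped those of DMSO (0.16 ± 0.26), and the S.C. values lay above them (0.46 ± 0.31). Neu1 (sialidase), Gaa (acid alpha-glucosidase), Man2b1 (alpha-mannosidase) and Fuca1 (alpha-fucosidase) had differences of 0.32 to 0.46 after I.P. and 0.17 to 0.31 after S.C. treatment. Glb1 (beta-galactosidase) was at -0.07 ± 0.25 and 0.47 ± 0.33, and Manba (beta-mannosidase) at -0.06 ± 0.32 and -0.24 ± 0.76. Of the exon bases of Hexa, Glb1 and Idua, 12.78%, 6.886% and 7.484% are shared with other genes, for Glb1 with Tmppe on the same strand.

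The 4 sulfatases were low, with medians of 0.07 (I.P.) and 0.27 (S.C.), and 1 was higher after I.P. and 0 after S.C. treatment. Sgsh (heparan N-sulfatase; chr11:119343425-119355536, mm10, minus strand) measured 8.14 and 17.9 CPM in the DMSO mice, 41.2, 23.8, 21.8 and 18.4 CPM in the I.P. mice, and 13.2 and 24.8 CPM in the S.C. mice. All I.P. mice were above both DMSO mice, I.P. mouse 4 by a narrow margin, and the S.C. mice overlapped them. The difference was 1.003 ± 0.43 (unadjusted P = 0.0476), 2.004-fold, after I.P. and 0.52 ± 0.62 after S.C. treatment. It was 0.55 without DMSO mouse 1 and 0.71, 1.06 and 1.08 without I.P. mouse 1, 2 or 3, none of which passed, and 21.92% of Sgsh exon bases lie under exons of Card14 on the opposite strand. Arsa measured 27.5 and 28.9 CPM with DMSO, 37.3, 33.7, 29.8 and 30.0 CPM after I.P., and 28.9 and 41.1 CPM after S.C. treatment, with differences of 0.21 ± 0.23 and 0.28 ± 0.38. Arsb and Ids had differences of -0.30 and -0.07 after I.P. and 0.07 and 0.25 after S.C. treatment, none of which passed.

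Naglu and Sgsh act in the same route, the stepwise breakdown of heparan sulfate, and some further enzymes of it were looked up after their values were seen. Hgsnat, the membrane acetyltransferase of the route, measured 376 and 288 CPM with DMSO, 829, 365, 665 and 794 CPM after I.P., and 210 and 228 CPM after S.C. treatment. It was thus below both DMSO mice in the S.C. mice, and I.P. mouse 2 lay between them. Its differences were 0.99 ± 0.35 (unadjusted P = 0.0207) and -0.62 ± 0.31. Idua, Ids and Gusb, which also act on heparan sulfate, were at 0.15, -0.07 and 0.15 after I.P. and 0.27, 0.25 and 0.01 after S.C. treatment, and did not pass.

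Among the 11 lipid enzymes and lipid-binding proteins, 8 were above 0 after I.P. and 7 after S.C. treatment, with medians of 0.21 and 0.24, and 1 was higher at the unadjusted threshold by each route. That gene was Smpdl3a (a phosphodiesterase related to acid sphingomyelinase; chr10:57794335-57811830, mm10, plus strand). It measured 242 and 215 CPM in the DMSO mice, 537, 401, 495 and 589 CPM in the I.P. mice, and 418 and 549 CPM in the S.C. mice. No treated mouse overlapped a DMSO mouse. The difference was 1.14 ± 0.24 (unadjusted P = 0.00127), 2.204-fold, after I.P. and 1.06 ± 0.31 (unadjusted P = 0.0158), 2.08-fold, after S.C. treatment. The I.P. value passed under all 14 alternative settings tried, between 1.01 and 1.24, and the S.C. value was 1.13 and 0.97, not passing, without DMSO mouse 1 or 2. Smpd1, acid sphingomyelinase itself, measured 33.8 and 41.0 CPM with DMSO, 51.2, 44.4, 37.8 and 55.5 CPM after I.P., and 29.3 and 43.8 CPM after S.C. treatment. Its groups overlapped, at 0.33 ± 0.25 and -0.06 ± 0.39. Smpdl3b, the other relative, measured 24.4 and 19.6 CPM with DMSO, 11.7, 18.3, 19.5 and 10.2 CPM after I.P., and 21.4 and 0.510 CPM after S.C. treatment. The I.P. mice lay below both DMSO mice (-0.56 ± 0.33), and 1 of the 2 S.C. mice was nearly without it (-1.04 ± 1.36).

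Psap, the precursor of the saposins that present sphingolipids to their hydrolases, was the most abundant of the class. It measured 5842 and 4730 CPM with DMSO, 6740, 6006, 7800 and 6976 CPM after I.P., and 4269 and 4725 CPM after S.C. treatment. All I.P. mice were above and both S.C. mice below both DMSO mice, the second S.C. mouse by a small margin. Against DMSO the differences were 0.38 ± 0.24 and -0.26 ± 0.30. Plbd2, a phospholipase B-like protein, measured 148 and 169 CPM with DMSO, 371, 211, 189 and 212 CPM after I.P., and 182 and 197 CPM after S.C. treatment, above DMSO in all 6 treated mice by 0.63 ± 0.31 and 0.23 ± 0.29, and 8.555% of its exon bases lie under Sds on the opposite strand. Lipa (acid lipase) was at 0.21 ± 0.37 and 0.52 ± 0.30. Asah1 (acid ceramidase), Ppt1 (palmitoyl-protein thioesterase), Gm2a (the GM2 activator) and Pla2g15 (a phospholipase) had differences of -0.26 to 0.15 after I.P. and -0.07 to 0.34 after S.C. treatment.

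Of the last 4 genes, 2 were higher at the unadjusted threshold after I.P. and 1 after S.C. treatment, with medians of 0.43 and -0.21. Acp5 (tartrate-resistant acid phosphatase, an osteoclast and macrophage enzyme; chr9:22126727-22135711, mm10, minus strand) measured 92.3 and 50.1 CPM in the DMSO mice, 283, 116, 178 and 120 CPM in the I.P. mice, and 197 and 221 CPM in the S.C. mice. All 6 treated mice were above both DMSO mice. The difference was 1.28 ± 0.43 (unadjusted P = 0.0168), 2.43-fold, after I.P. and 1.53 ± 0.40 (unadjusted P = 0.00953), 2.89-fold, after S.C. treatment. Without DMSO mouse 2 these were 0.91 and 1.15, and neither passed. Acp2, the other acid phosphatase, measured 237 and 144 CPM with DMSO, 151 to 210 CPM after I.P., and 132 and 176 CPM after S.C. treatment, with differences of -0.01 ± 0.27 and -0.33 ± 0.38.

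Grn (progranulin, a lysosomal precursor protein cut into granulins; chr11:102430315-102437048, mm10, plus strand) measured 3463 and 4095 CPM in the DMSO mice, 6191, 5233, 5575 and 5294 CPM in the I.P. mice, and 3248 and 3957 CPM in the S.C. mice. Every I.P. mouse was above both DMSO mice, and the S.C. mice overlapped them. The difference was 0.55 ± 0.23 (unadjusted P = 0.0378) after I.P. and -0.09 ± 0.31 after S.C. treatment. The I.P. value was 0.44 without DMSO mouse 1 and 0.59, 0.55 and 0.58 without I.P. mouse 2, 3 or 4, and none of these passed. Dnase2a, the acid nuclease that digests DNA of engulfed cells, measured 101 and 113 CPM with DMSO, 112, 148, 144 and 130 CPM after I.P., and 87.4 and 82.9 CPM after S.C. treatment, with differences from DMSO of 0.31 ± 0.22 and -0.35 ± 0.30.

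**Figure D4:**
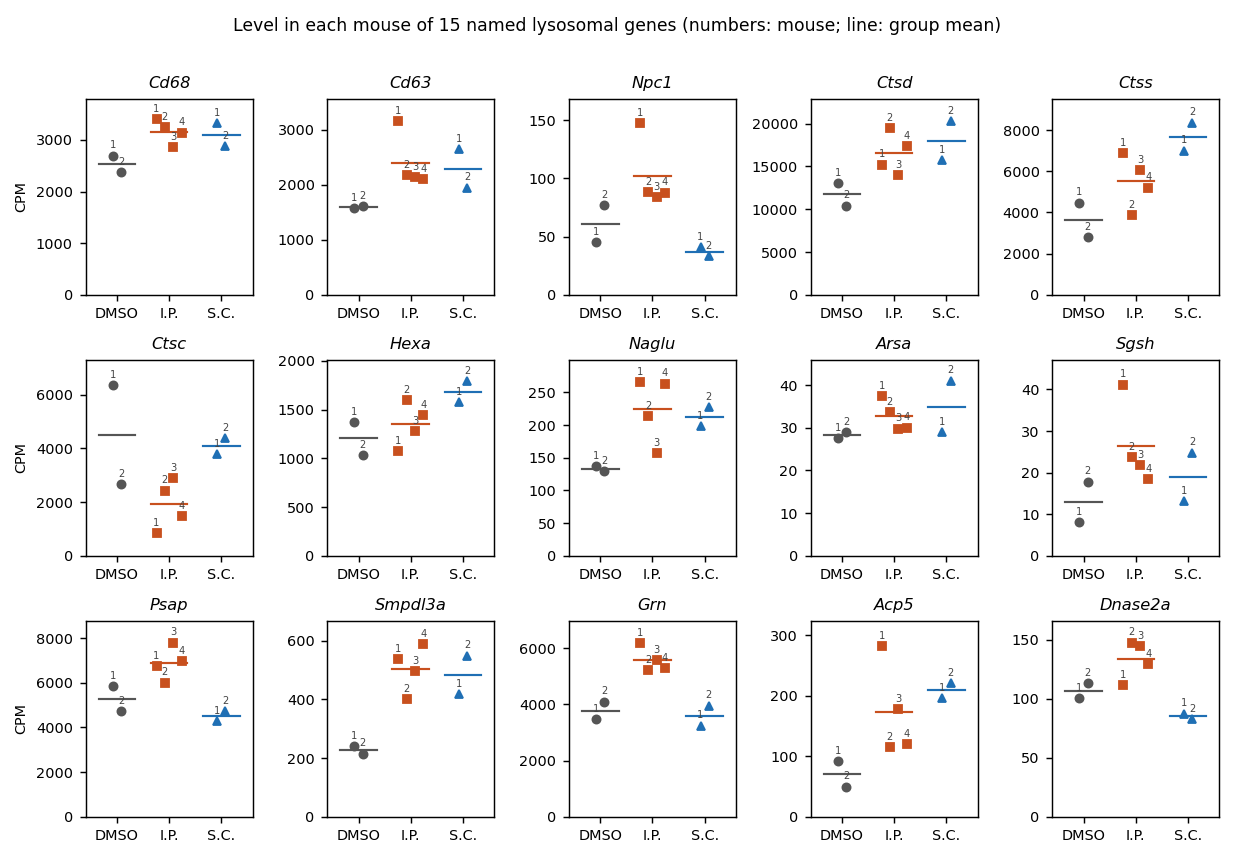
CPM in each mouse (numbered points) of 15 lysosomal genes in the 2 DMSO, 4 I.P. and 2 S.C. mice, with lines at group means and every axis starting at 0. For Smpdl3a the 6 treated mice, at 401 to 589 CPM, lie above both DMSO mice, at 242 and 215 CPM, and for Npc1, Psap and Dnase2a the S.C. mice lie below all others.

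The third comparison set the S.C. mice against the I.P. mice directly. Of the 51 genes, 1 was higher (Ctsc) and 4 were lower (Npc1, Psap, Dnase2a and Grn) in the S.C. mice at an unadjusted P under 0.05, against 3.25% and 5.34% (8.59% in either direction) of 12206 genes tested. At 2-fold as well, 1 was higher (Ctsc) and 1 lower (Npc1), against 2.41% and 4.64% of all genes. The 2 groups did not overlap for 5 genes higher after S.C. treatment (Ctsc, Ctss, Ctsz, Glb1 and Ppt1) and 5 lower (Npc1, Ctsk, Psap, Dnase2a and Grn), against 8.05% and 10.5% of all genes. The median log2 difference of the 51 was 0.00 and 26 were above 0, beside 0.02 and 51.8% for all genes. By edgeR's quasi-likelihood test 0 genes passed an adjusted p of 0.05, and the smallest adjusted p among the 51 was 0.277 (Npc1). DESeq2 placed 234 genes and edgeR's likelihood ratio test 265 genes under it, with Npc1 the 1 lysosomal gene in each (adjusted p = 0.00565 and 0.0211).

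Npc1 differed most, at -1.45 ± 0.34 (unadjusted P = 0.00252), 2.74-fold lower in the S.C. mice, and passed under all 14 alternative settings tried, between -1.62 and -1.22. The 4 I.P. values, 83.9 to 147 CPM, did not overlap the S.C. values of 40.8 and 33.6 CPM. Psap differed by -0.61 ± 0.22 (unadjusted P = 0.0245), Grn differed by -0.63 ± 0.22 (unadjusted P = 0.0217) and Dnase2a by -0.65 ± 0.25 (unadjusted P = 0.033), each with no overlap between the groups. Without S.C. mouse 1 these were -0.54, -0.50 and -0.69, and none passed. Psap (-0.69) also did not pass without S.C. mouse 2, and Dnase2a did not pass without any of I.P. mice 2, 3 and 4 or S.C. mouse 2, at -0.66 to -0.60. Ctsc was higher in the S.C. mice by 1.09 ± 0.43 (unadjusted P = 0.0336), with both S.C. mice above every I.P. mouse. It was 0.98, 1.19 and 0.97, not passing, without I.P. mouse 4, S.C. mouse 1 or S.C. mouse 2. Smpdl3a and Acp5, which passed against DMSO by each route, differed between routes by -0.06 ± 0.26 and 0.27 ± 0.39.

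The mice of 1 group differed in how many of the 51 genes lay above DMSO. Of the S.C. mice, mouse 2 was above both DMSO mice for 41 genes and below both for 5, beside 40.0% and 41.2% of the 11680 genes tested. Mouse 1 was above for 23 and below for 17, beside 41.4% and 41.2%. The median gap between the 2 S.C. mice in log2 CPM was 0.26 for the 38 lysosomal genes whose mean was 100 CPM or more, beside 0.49 for all 1744 genes of that level. Their largest gaps were for Manba, at 19.7 and 110 CPM, Ids, at 9.15 and 47.9 CPM, Man2b1, at 237 and 765 CPM, and Asah1, at 457 and 1044 CPM, all higher in mouse 2. Smpdl3b ran the other way, at 21.4 and 0.510 CPM. With only S.C. mouse 1 the median log2 fold change of the 51 over DMSO was 0.05 and 26 were above 0. All genes then had a median of -0.059, with 47.3% above 0. With only S.C. mouse 2 the median of the 51 was 0.40 and 44 were above 0, beside -0.062 and 46.8% over all genes. Pigment-cell markers summed to 3211 CPM in S.C. mouse 1 and 757 CPM in S.C. mouse 2, and their part was not tested.

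Among the I.P. mice, mouse 1 departed most, with 29 genes above and 14 below both DMSO mice, against 30 to 39 above and 3 to 7 below in the other 3. Of all 12174 genes tested, 41.3% lay above and 42.5% below in mouse 1, and 29.5% to 37.5% above and 29.9% to 37.4% below in the other 3. It had the highest Acp5 (283 CPM), Sgsh (41.2 CPM), Npc1 (147 CPM) and Cd63 (3159 CPM) of all 8 mice, and the lowest Ctsc (855 CPM), Lipa (245 CPM), Tpp1 (330 CPM), Ppt1 (281 CPM), Asah1 (353 CPM) and Arsb (8.28 CPM). Its summed macrophage markers, 55465 CPM, were the highest of the 8 mice, and their part was not tested. Without I.P. mouse 1 the median log2 fold change over DMSO was 0.28 and 44 of the 51 genes were above 0. The values over all genes were 0.0027 and 50.4%. The heat map by mouse shows both mice with mixed directions beside the more even I.P. mice 2 to 4. Over the 38 genes whose mean was 100 CPM or more, the median SD of log2 CPM over the 8 mice was 0.33, beside 0.35 for all 1744 genes of that level.

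**Figure D5:**
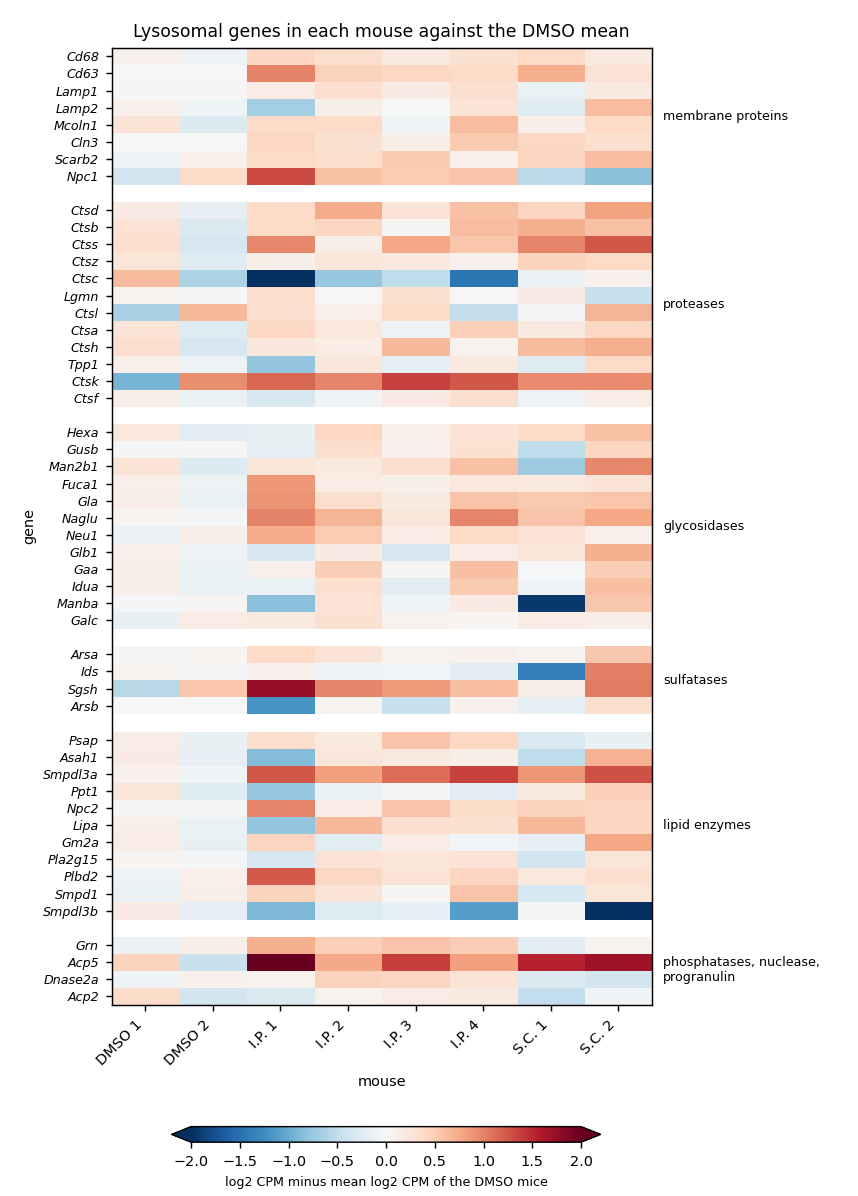
Log2 CPM of the 51 genes in each of the 8 mice minus the mean log2 CPM of the 2 DMSO mice, grouped by class, with red above and blue below that mean and colors limited to 2 in either direction. Smpdl3a and Acp5 are red in all 6 treated mice, Ctsc is blue in the 4 I.P. mice, and I.P. mouse 1 and S.C. mouse 1 hold the most blue cells among treated mice.

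Genes that acidify, regulate and supply the lysosome were tabulated from further lists. Of all genes tested, 2.55% were higher and 0.879% lower at an unadjusted P under 0.05 after I.P. treatment. After S.C. treatment 2.5% were higher and 2.91% lower, and 51.8% (I.P.) and 51.6% (S.C.) were above 0. Of the 19 V-ATPase subunits, 2 were higher and 0 lower at an unadjusted P under 0.05 after I.P., and 1 was higher and 0 lower after S.C. treatment, with medians of 0.28 and 0.30 and 16 of 19 above 0 by each route. Atp6v0d2, a subunit best known from osteoclasts and macrophages, measured 244 and 223 CPM in the DMSO mice, 450, 524, 365 and 491 CPM in the I.P. mice, and 477 and 711 CPM in the S.C. mice. No treated mouse overlapped a DMSO mouse, and the differences were 0.97 ± 0.24 (unadjusted P = 0.00311) and 1.33 ± 0.34 (unadjusted P = 0.00857). Tcirg1, the a3 subunit, was at 0.74 ± 0.29 (unadjusted P = 0.0312) after I.P. and 0.55 ± 0.38 after S.C. treatment.

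Of 22 tested genes for MiT/TFE factors and mTORC1 control, 2 were higher and 0 lower after I.P. and 0 higher and 1 lower after S.C. treatment, with medians of 0.33 and 0.06. The shares over all genes were 2.55% higher and 0.879% lower (I.P.) and 2.5% and 2.91% (S.C.). Tfeb measured 27.9 and 29.1 CPM with DMSO, 61.7, 36.1, 32.1 and 45.4 CPM after I.P., and 43.5 and 40.7 CPM after S.C. treatment. It was above DMSO in all 6 treated mice but did not pass, at 0.61 ± 0.30 and 0.54 ± 0.35. Fnip2 and Rragd, parts of the machinery that places mTORC1 and TFEB at the lysosome, were at 0.96 ± 0.35 (unadjusted P = 0.0225) and 0.93 ± 0.36 (unadjusted P = 0.03) after I.P., and at 0.19 and 0.05 after S.C. treatment. Mlst8, a subunit of mTOR complexes, was the lower gene after S.C. treatment. It measured 16.5 and 15.6 CPM with DMSO, 22.1, 16.7, 15.2 and 28.3 CPM after I.P., and 0.0673 and 0.364 CPM after S.C. treatment, where it was near or under the floor of 3 counts.

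Of 16 genes for mannose 6-phosphate tagging and sorting, 1 was higher after I.P. (Gnptg, a subunit of the tagging enzyme, 0.71 ± 0.26, unadjusted P = 0.0231) and 0 passed after S.C. treatment, with medians of -0.01 and -0.04. Over all genes 2.55% were higher after I.P. treatment. Of 6 tested cystatins and protease inhibitors, 0 passed by either route in edgeR's test at the unadjusted threshold. Cst3, a secreted inhibitor of cysteine cathepsins, was at 0.33 ± 0.28 and 0.42 ± 0.30, and Cstb at 0.63 ± 0.36 and 0.18 ± 0.34.

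Of 40 tested further lysosomal hydrolases and membrane proteins outside the 51, 8 were higher and 0 lower after I.P., and 2 were higher and 2 lower after S.C. treatment, with medians of 0.19 and 0.25. The shares over all genes were 2.55% higher and 0.879% lower (I.P.) and 2.5% and 2.91% (S.C.). Gpnmb, a glycoprotein of lysosomes and melanosomes, measured 1790 and 1578 CPM in the DMSO mice, 5356, 4828, 2501 and 7523 CPM in the I.P. mice, and 3294 and 8286 CPM in the S.C. mice. All treated mice lay above DMSO, by 1.58 ± 0.42 (unadjusted P = 0.00473), 2.99-fold, and 1.76 ± 0.50 (unadjusted P = 0.014), 3.39-fold. Melanoma cells also express Gpnmb, and among the I.P. mice the highest pigment-marker sum (1814 CPM) and the highest Gpnmb were in mouse 4. In the S.C. mice the order was opposite, with 3211 CPM of markers in mouse 1 and 757 CPM in mouse 2, and their part was not tested. Pld3, an exonuclease of the lysosome, measured 720 and 654 CPM with DMSO, 1626, 1170, 951 and 1152 CPM after I.P., and 959 and 1347 CPM after S.C. treatment, at 0.83 ± 0.27 (unadjusted P = 0.0134) and 0.72 ± 0.32. Laptm4b, a lysosomal membrane protein, was at 0.67 ± 0.29 (unadjusted P = 0.0481) and 1.54 ± 0.40 (unadjusted P = 0.00951). The 2 lower genes after S.C. treatment were Ctns, the cystine exporter, at -1.002 ± 0.39 (unadjusted P = 0.044), and Tmem106b, at -0.99 ± 0.40 (unadjusted P = 0.0487), and they were at 0.39 and 0.27 after I.P. treatment, where neither passed. Between the routes 3 of the 40 were higher and 4 lower in the S.C. mice, beside 3.25% and 5.34% of all genes, with a median of 0.13. Ctns and Tmem106b were lower in the S.C. mice by log2 differences of -1.37 ± 0.37 (unadjusted P = 0.00553) and -1.24 ± 0.29 (unadjusted P = 0.00257), Hgsnat by -1.60 ± 0.37 (unadjusted P = 0.00219) and the hyaluronidase Hyal1 by -1.36 ± 0.33 (unadjusted P = 0.00294). The higher genes were Laptm4b, at 0.89 ± 0.34 (unadjusted P = 0.028), and the lysozymes Lyz2, at 0.63 ± 0.23 (unadjusted P = 0.024), and Lyz1, at 0.60 ± 0.23 (unadjusted P = 0.0308). The lysozymes were named after their values were seen, and reads of these near-identical genes may be shared.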

How the data were processed

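The authors deposited 1 table of raw gene counts for 8 libraries (Qiagen RNeasy Micro and KAPA mRNA HyperPrep kits). The study's methods name bowtie2 2.2.3 and RSEM 1.2.15 with mm10, whereas the submitters' processing notes name TopHat2, edgeR and mm10, and strand and annotation are not given in the sources used here. Groups follow the labels.

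Counts of each pair of groups were fitted over all genes with edgeR 4.0.16 (R 4.3.3, limma 3.58.1): filterByExpr (minimum count 10, minimum total 15), TMM factors, and the two-sided quasi-likelihood test, with Benjamini-Hochberg adjustment over all genes tested. Calls use an unadjusted P under 0.05, as the study did. The standard error is the log2 fold change divided by the square root of F. Log2 CPM used a prior count of 2. Each P-value tests a group difference against the spread between these mice, which was estimated partly with information shared over all genes. Library preparation batches are not given in the sources used here. Alternatives were DESeq2 1.42.0, another test, scaling, filter and design, and leaving out each mouse.

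Gene coordinates and lengths come from GENCODE vM21 (93.01% of 23413 symbols found). Promoters come from RefSeq. Named members are those at P under 0.05 in any comparison, the smallest P by each route and the most CPM per kb of each class (15 of 51), and, in each further list, genes among the 3 with the smallest P in a comparison. Other members are described for their class. The 51 genes, the lists and the tests were chosen with earlier results of these data known.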

Additional observations from a re-analysis of the deposited data

Results flagged for a closer look

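In the group of 4 I.P. mice, mouse 1 stood apart from the other 3 by Dixon's test (critical value 0.829) for 6 of the 51 lysosomal genes, where chance flags about 1 group in 20. It was high for Cd63 (3159 CPM against 2100 to 2183), Npc1 (147 against 83.9 to 88.3), Fuca1 (410 against 244 to 260) and Plbd2 (371 against 189 to 212). It was low for Asah1 (353 against 701 to 756) and Pla2g15 (123 against 181 to 188). In all 6 cases the mouse that stood apart was mouse 1. The share of all genes flagged in this way was not computed. Mouse 1 also departed most over all genes tested, with 41.3% above and 42.5% below both DMSO mice. The 6 flags can therefore not be read as particular to lysosomal genes.

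In all, 5 of the 51 genes (9.80%, beside 8.59% of all 12206 genes tested) differed between the S.C. and I.P. mice in edgeR's quasi-likelihood test of that difference at an unadjusted P under 0.05: Npc1 (log2 difference -1.45), Ctsc (1.09), Dnase2a (-0.65), Grn (-0.63) and Psap (-0.61), all with an adjusted p of at least 0.277. For Npc1 and Psap, all 4 I.P. mice lay above and both S.C. mice below both DMSO mice. For Psap the second S.C. mouse did so by a small margin. The share of all genes with this pattern was not computed.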

How the results depend on the processing

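With 2 DMSO and 2 S.C. mice, each comparison rests on few libraries. Where 1 mouse of a pair was left out, the lone mouse was assumed to vary like the other group. Over all genes, more then passed the unadjusted threshold without 1 S.C. mouse, and fewer without 1 DMSO mouse, than with all mice. The counts of lysosomal genes from these fits can therefore not be compared directly with the counts from all mice. Of all 12174 genes tested after I.P. treatment, 418 passed in the main fit, 389 with library size only and 334 with the replicate block. Between S.C. and I.P. mice, 1049 of 12206 passed in the main fit and 1056 with library size only. The number of lysosomal genes higher after I.P. treatment was 3 in place of 6 with library size only and with the replicate block, and 3 to 5 when 1 mouse was left out. The number lower was 0 to 1. After S.C. treatment 1 to 5 were higher and 0 to 2 lower without 1 mouse, in place of 3 and 0. Between S.C. and I.P. mice, 0 were higher with library size only and 0 to 2 without 1 mouse, in place of 1, and 2 to 5 were lower without 1 mouse, in place of 4. The medians of the 51 without 1 mouse ran from 0.20 to 0.35 (I.P.), 0.048 to 0.40 (S.C.) and -0.18 to 0.14 (S.C. against I.P.). Those of all genes ran from 0.0027 to 0.058, -0.062 to 0.059 and -0.088 to 0.041.

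The labels number the mice and state no pairing. Same-numbered deviations correlated at -0.19 and 0.02 (I.P. with DMSO), -0.19 (S.C. with DMSO), and 0.17 and 0.02 (S.C. with I.P.). In a group of 2 mice the deviations mirror each other, so these values can neither show nor exclude a pairing. With the replicate block, 3 of the 51 genes were higher and 1 lower after I.P., and 3 higher and 1 lower (Smpdl3b) after S.C. Between S.C. and I.P. mice 2 were higher and 2 lower. Of all genes tested, 334 of 12174 (I.P.), 431 of 11680 (S.C.) and 443 of 12206 (S.C. against I.P.) then passed in either direction. With the numbers crossed, an alternative chosen after seeing the data, 3 of the 51 were higher and 0 lower after S.C. treatment. Over all genes 546 of 11680 passed in that fit.

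Of the named genes, the values that changed sign were not called on either side. Leaving out 1 mouse at a time gave, over DMSO after I.P. treatment, -0.031 to 0.375 for Hexa. After S.C. treatment it gave -0.673 to 0.581 for Ctsc, -0.280 to 0.039 for Grn, -0.026 to 0.513 for Arsa and -0.046 to 1.19 for Sgsh. Between S.C. and I.P. mice it gave -0.182 to 0.326 for Arsa, -0.277 to 0.119 for Smpdl3a, -0.250 to 0.014 for Naglu, -0.298 to 0.139 for Cd63, -0.137 to 0.066 for Cd68 and -0.074 to 0.296 for Ctsd. In that comparison Arsa was -0.0050 with library size only and -0.041 with the replicate block, and Smpdl3a was 0.048 with the block. Ids, which is outside the 15 named genes, also changed sign. Over DMSO it was 0.99 without S.C. mouse 1 and -1.43 without S.C. mouse 2, and over the I.P. mice 1.08 and -1.31. The cause of these changes was not tested.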
